A study of Homo sapiens with 30 samples.

Results

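The receptor-activated SMADs and SMAD4 are the transcription factors that carry BMP and TGF-beta signals from the cell surface to the nucleus. All probes named SMAD1, SMAD2, SMAD3, SMAD4, SMAD5 or SMAD9 in the array files were taken, which gave 11 probes for 6 genes among 41000 probes. Their messages were followed in 5 human breast cancer cell lines, HCC1954, MDA-MB-231, MDA-MB-361, T-47D and ZR-75-30, each given recombinant human BMP7 (50 ng/ml) or vehicle and collected at 6 times, of which the first was 30 min, the last 24 h, and the others 1, 3, 6 and 12 h. All lines had been chosen by the study for low BMP7 expression of their own. Each of the 30 samples pooled the cells of 3 cultures and was hybridized to 1 two-colour Agilent array, with the vehicle-treated cells in Cy3 and the BMP7-treated cells in Cy5. There was no dye swap and no repeat array, so any steady preference of a probe for one dye stays in its ratio, and p-values measure the spread between cell lines or between time points of a line. A line stands for its own cells only. The medium held 1% serum for MDA-MB-231 and 5% for T-47D, while the other lines were grown in their recommended conditions. Differences of MDA-MB-231 and T-47D from the other lines cannot be told apart from those of serum.

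BMP ligands such as BMP7 bind type I and type II serine/threonine kinase receptors, and the activated type I receptor phosphorylates SMAD1, SMAD5 and SMAD9 (also called SMAD8). TGF-beta and activin receptors phosphorylate SMAD2 and SMAD3 in the same way. SMAD4 is not phosphorylated by receptors. It joins the activated SMADs of either branch, and the complexes enter the nucleus and regulate genes such as those of the ID family. Activation is by phosphorylation of protein that is already present, which an RNA array does not measure, so the values here concern the supply of the messages.

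Probe positions are those of the array files in the hg18 build. SMAD1 was read by A_23_P212870 (chr4:146698483-146698542) and A_24_P71938 (chr4:146699669-146699728), SMAD5 by A_23_P144944 (chr5:135541281-135541340) and SMAD9 by A_23_P2814 (chr13:36320813-36320872, minus strand). SMAD2 was read by 4 probes on the minus strand of chromosome 18, of which A_23_P15937 (chr18:43622029-43622088) was the brightest. SMAD3 was read by A_23_P359091 (chr15:65270577-65270637) and A_23_P48936 (chr15:65274445-65274504), and SMAD4 by A_23_P27346 (chr18:46859058-46859117). Which exon or untranslated region each probe lies in was not determined, since no annotation of that build was used here. The brightest probe of a gene by its median vehicle signal is called its leading probe. Probes A_23_P15937, A_23_P48936 and A_23_P27346 were each spotted 10 times per array, and the log2 ratios of their spots had a median SD of 0.060, 0.067 and 0.067. The other 8 probes had 1 spot. Of the 11 probes, 9 were well above background in both channels on all 30 arrays. The SMAD9 probe was above background on 26 arrays in the vehicle channel and on 27 in the BMP7 channel, and the SMAD2 probe A_32_P12580 on 29 and 28.

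The largest differences from 30 min to the later times were those of SMAD9 and SMAD4, in opposite directions, and the 250 bases before the start of these genes are shown for that reason. They come from RefSeq in the GRCh38.p14 build, at chr13:36920239-36920488 (minus strand) for SMAD9 and chr18:51029963-51030212 (plus strand) for SMAD4. Capitals mark GGCGCC, the core of a GC-rich element bound by BMP-branch SMADs.
SMAD9: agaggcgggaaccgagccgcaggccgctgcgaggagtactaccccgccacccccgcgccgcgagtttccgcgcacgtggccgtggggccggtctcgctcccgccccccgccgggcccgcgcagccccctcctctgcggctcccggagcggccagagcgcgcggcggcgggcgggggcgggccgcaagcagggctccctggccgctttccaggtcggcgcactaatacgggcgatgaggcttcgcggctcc
SMAD4: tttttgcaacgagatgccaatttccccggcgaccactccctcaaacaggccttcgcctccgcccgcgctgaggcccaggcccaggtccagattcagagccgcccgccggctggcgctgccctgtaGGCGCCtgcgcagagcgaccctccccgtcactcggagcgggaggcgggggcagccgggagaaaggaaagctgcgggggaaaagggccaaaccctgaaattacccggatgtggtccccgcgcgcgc
The SMAD4 window held GGCGCC 1 time, starting 125 bases before the start site, and the SMAD9 window did not hold it. The SMAD-binding box CAGAC, or its complement GTCTG, was in neither window. Of 35116 promoter windows of the same length, 16.4% held GGCGCC and 38% held CAGAC on either strand. G and C made up 78.4% of the SMAD9 window and 68.4% of the SMAD4 window, against a median of 58% over all windows. Such matches are a description of these letters and not of factor binding.

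Both channels were well above background for 53.8% to 68.3% of the probes of an array. The array of ZR-75-30 at 6 h stood apart, with 4044 probes changed at least 2-fold where the median over arrays was 543. There were 13 slides and 2 scan batches, with 6 arrays in the second batch, among them the 30 min arrays of 3 lines (HCC1954, ZR-75-30 and MDA-MB-231). The median vehicle signal of CDH1 was 205 in MDA-MB-231 and at least 27656 in the other lines, ESR1 was not above background in MDA-MB-231, and VIM reached 109608 there. Other markers of the same lists went the other way in MDA-MB-231. There KRT8 (12621), KRT18 (46012) and GATA3 (147) were above background on 6 of 6 arrays, and the basal marker KRT5 on 1 of 6. VIM was at 23651 in HCC1954. The leukocyte marker PTPRC and the fibroblast markers COL1A2 and DCN were not above background on any array. The leukocyte markers CD3E and CD14 were above background on all arrays with medians per line of at most 155, COL1A1 reached a median of 540 in MDA-MB-361, and the endothelial markers PECAM1 and CDH5 were above background in HCC1954, on 6 and 5 of 6 arrays. Their part in the SMAD values was not tested.

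The supply of SMAD messages without added ligand was compared across the lines in the vehicle channel. Signals were divided by the 75th percentile of their array and tested on the log2 scale (limma, F test over lines with time as a factor and slide as a random block). Between lines, 10 of 11 SMAD probes differed at an adjusted p under 0.05, and SMAD4 was the exception. Beside this stand 68.0% of all 40977 probes tested, and 87.5% of 17738 probes above background in both channels on every array. Of the 10 pairs of lines, between 0 and 9 passed for a SMAD probe, most for the SMAD3 probe A_23_P48936, beside 40.3% of pairs over all probes. The widest ranges between lines were those of both SMAD3 probes and the leading SMAD1 probe (8.14-fold). Levels are compared below between lines for the same probe only.

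SMAD3, a receptor-activated SMAD of the TGF-beta branch, had the widest range of the 6 genes. Vehicle signals of the leading SMAD3 probe ran from 154 to 224 in T-47D with a median of 209, and from 554 to 813 in MDA-MB-361 with a median of 706. In the other lines the lowest, median and highest were 1275, 2152 and 4747 in MDA-MB-231, 1535, 2496 and 3264 in HCC1954, and 1830, 2190 and 2610 in ZR-75-30. T-47D was thus below every array of every other line, and MDA-MB-361 was below every array of the 3 high lines. Scaled levels were 2.68-fold higher in MDA-MB-361 than in T-47D (95% interval 2.02 to 3.55, limma adjusted p = 2.57e-06) and 3.35-fold higher in ZR-75-30 than in MDA-MB-361 (2.54 to 4.42, adjusted p = 9.72e-08). Among the 3 high lines the neighbours did not pass the test, with folds of 1.15 (0.88 to 1.49) and 1.03 (0.79 to 1.34). The second SMAD3 probe had a range of 36.7-fold between MDA-MB-231 and T-47D, against 10.6-fold for the leading probe, and its level in MDA-MB-231 was 1.91-fold above that in ZR-75-30 (adjusted p = 5.20e-05). Over 30 arrays the vehicle levels of both SMAD3 probes correlated at r = 0.97.

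SMAD1, a BMP-branch SMAD, was set apart by MDA-MB-231. Vehicle signals of its leading probe ran from 92.2 to 828 there, with a median of 290. The lowest, median and highest signals were 2338, 2729 and 3191 in MDA-MB-361, 1561, 1928 and 1987 in ZR-75-30, 1196, 1818 and 3516 in HCC1954, and 827 to 2032 with a median of 1574 in T-47D. After scaling, all 6 arrays of MDA-MB-231 lay below all others, and T-47D, the next line, was 5.36-fold higher (95% interval 4.28 to 6.71, limma adjusted p = 2.96e-12). MDA-MB-361 was highest, 1.39-fold above ZR-75-30 (1.101 to 1.77, adjusted p = 0.0254). ZR-75-30, HCC1954 and T-47D did not differ beyond their spread. MDA-MB-231 was lowest by the second SMAD1 probe too, 2.32-fold below ZR-75-30 (adjusted p = 7.54e-05), while that probe had T-47D highest. For SMAD1, the lines were not ordered as for SMAD3. The line with the lowest SMAD1 level, MDA-MB-231, had the highest SMAD3 level.

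SMAD5, the close relative of SMAD1, was highest in MDA-MB-231 and HCC1954 and lowest in MDA-MB-361. Its vehicle signals in MDA-MB-361 ran from 163 to 239 with a median of 199, and in HCC1954 from 368 to 780 with a median of 670. In MDA-MB-231 they ran from 300 to 1223 with a median of 517, in ZR-75-30 from 297 to 426 with a median of 391, and in T-47D from 96.1 to 371 with a median of 262. The highest line was 3.19-fold above the lowest (adjusted p over all lines 1.42e-05), and 6 of 10 pairs of lines passed the test. No pair of neighbours did, with adjusted p from 0.106 to 0.662.

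SMAD9, the BMP-branch SMAD whose signals were nearest to background, had its highest level in T-47D. Its vehicle signals ran from 50.3 to 80.9 in T-47D with a median of 59.3, and from 20.9 to 43.5 in ZR-75-30 with a median of 25.7. In ZR-75-30, 3 of 6 arrays were above background. In HCC1954, MDA-MB-231 and MDA-MB-361 the medians were 49.0, 50.4 and 41.6. T-47D was 1.75-fold above HCC1954, the next line (95% interval 1.28 to 2.39, limma adjusted p = 0.00431), and no lower neighbours differed beyond their spread. With normexp background correction, the difference of SMAD9 between lines no longer passed the test (adjusted p = 0.505).

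SMAD2, the partner of SMAD3 in the TGF-beta branch, differed little between lines. Signals of its leading probe had medians of 6008 in HCC1954, 3992 in ZR-75-30, 3285 in MDA-MB-361, 3084 in MDA-MB-231 and 2950 in T-47D, and the scaled level of HCC1954 was 1.76-fold above that of T-47D (adjusted p over all lines 0.0140). The second brightest SMAD2 probe placed the same lines first and last, with a range of 1.70-fold (adjusted p = 0.00195). The 2 dim SMAD2 probes had MDA-MB-361 highest instead, with T-47D lowest by one and ZR-75-30 by the other. Calls on SMAD2 were lost for all 4 probes with normexp background correction (adjusted p from 0.0722 to 0.739), and without the 24 h arrays for the leading probe (adjusted p = 0.125) and A_32_P12580 (0.0713). A_32_P109002 lost its call without the array of ZR-75-30 at 6 h (0.0693).

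SMAD4, the common partner, did not pass the test of a difference between lines (adjusted p = 0.396). The lowest, median and highest signals were 134, 453 and 469 in HCC1954, 90.5, 298 and 1380 in MDA-MB-231, 205, 272 and 429 in MDA-MB-361, 76.9, 252 and 388 in T-47D, and 198, 315 and 495 in ZR-75-30. The lines overlapped, and the fold between the highest and the lowest line was 1.57. The fold between MDA-MB-231 and ZR-75-30, the 2 highest lines, was 1.19 with a 95% interval from 0.78 to 1.82, so that differences of that size could not be detected. The 11 SMAD probes did not pass the test of vehicle levels across time points (limma, 0 of 11 at an adjusted p under 0.05, beside 0.0244% of all probes). At an unadjusted p under 0.05 there were likewise 0 of 11, beside 4.23% of all probes.

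**Figure D1:**
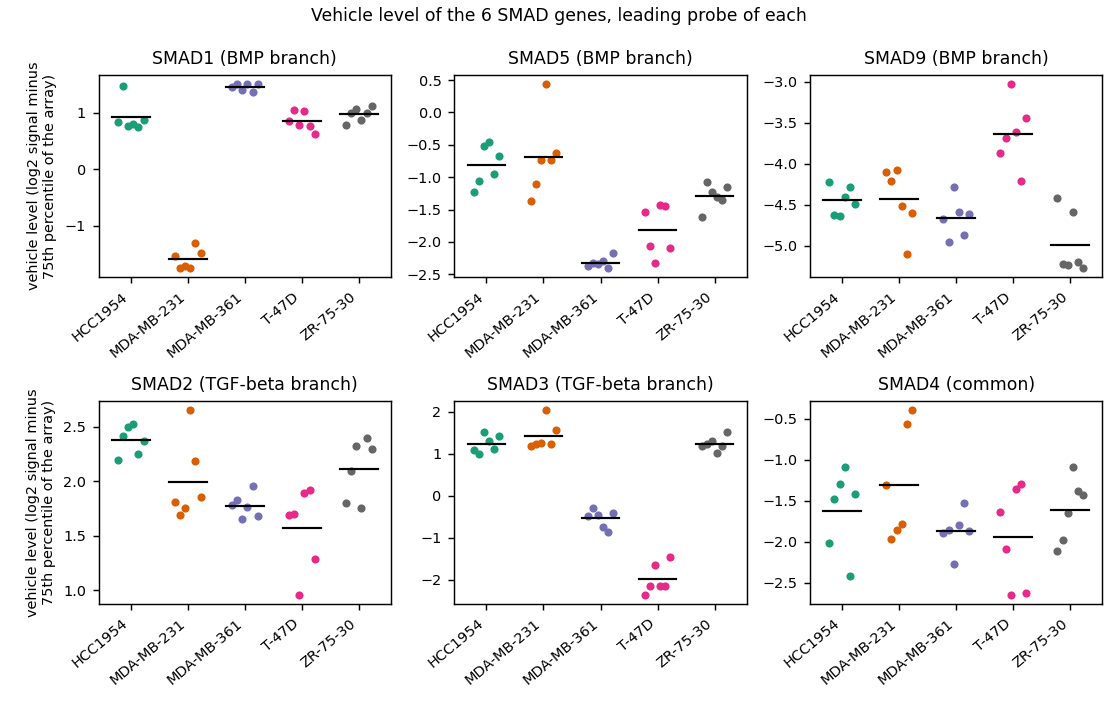
Vehicle level of each SMAD gene by its leading probe, as log2 signal minus the 75th percentile of the array, for the 6 arrays of each cell line in order of time (points) with their mean (bar). SMAD1 sits lowest in MDA-MB-231, SMAD3 lowest in T-47D and next lowest in MDA-MB-361, while the lines overlap for SMAD4. Each panel has its own axis, and levels are not compared between genes.

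The response to BMP7 was measured as the log2 ratio of BMP7 over vehicle on each array. Of the 6 genes, SMAD9 had the largest positive ratios. In MDA-MB-361 its log2 ratio was -0.34 at 30 min and -0.17 at 1 h, and then, in order of time, 1.08, 1.48, 1.41 and 1.13. The later values correspond to 2.11-, 2.79-, 2.65- and 2.19-fold, from vehicle signals of 51.0, 38.2, 42.5 and 43.7 and BMP7 signals of 108, 107, 112 and 95.8. Neither channel was above background in that line at 1 h. There the step between 1 h and 3 h was larger than the range of the later values. In ZR-75-30 the ratios in order of time were -0.24, -0.10, 0.66, 0.79, 0.65 and 0.21, where the vehicle channel was not above background at 1, 3 and 12 h. In MDA-MB-231 it was -0.25, -0.34, -0.13, 0.30, 1.09 and 0.26 in the same order. HCC1954 and T-47D stayed within narrower limits after 1 h, from -0.16 to 0.34 in HCC1954 and from 0.12 to 0.23 in T-47D. T-47D at 1 h was at -0.89, the lowest SMAD9 value. At 30 min and at 1 h the ratio was below 0 in 5 of 5 lines, and at 12 h and 24 h it was above 0 in 5 of 5.

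A change with time was tested as the mean ratio at 3 to 24 h minus the ratio at 30 min, with cell line as a block over 25 arrays, since a constant dye effect cancels in that difference. For SMAD9 this difference was 0.72 (SE 0.17, 95% interval 0.37 to 1.07), with an adjusted p of 0.0509 by limma over 40999 probes, just above the threshold of 0.05. It was 1.61 for MDA-MB-361, 0.82 for ZR-75-30, 0.63 for MDA-MB-231, 0.32 for HCC1954 and 0.23 for T-47D, and in each of the 5 lines all 4 later arrays lay above the array at 30 min. Over 16 alternative settings the SMAD9 difference kept its sign and ran from 0.30 to 0.95, with adjusted p from 0.0159 to 0.998, and it passed the threshold in 3 of them. The value was 0.30 after normexp background correction with loess (adjusted p = 0.0861) and 0.50 without MDA-MB-361 (adjusted p = 0.119). With the scan batch as a term it was 0.77 (adjusted p = 0.135). In the first scan batch alone it was 0.95 (adjusted p = 0.322), where only MDA-MB-361 and T-47D had an array at 30 min.

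SMAD4 had the largest difference in the other direction, -0.49 (SE 0.13, 95% interval -0.77 to -0.21, limma adjusted p = 0.0776). In ZR-75-30 its log2 ratios in order of time were 0.33, 0.18, -0.47, -0.76, -0.71 and -0.41. In HCC1954 it was 0.82 at 30 min, between 0.02 and 0.32 from 1 h to 12 h, and 0.48 at 24 h. T-47D was at 0.33, 0.46 and 0.15 up to 3 h and at -0.32, -0.31 and -0.40 from 6 h on. MDA-MB-361 was below 0 at all 6 times, from -0.46 to -0.19. MDA-MB-231 gave 0.48 at 12 h and -0.66 at 24 h, so that its last 2 arrays, which shared a slide, opposed each other. The late minus early difference was below 0 in 5 of 5 lines, from -0.91 in ZR-75-30 to -0.15 in MDA-MB-361. Over 16 alternatives it ran from -0.57 to -0.34 with adjusted p from 0.0380 to 0.998, and 3 of them passed the threshold.

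None of the 11 SMAD probes passed an adjusted p of 0.05 in this test, beside 0.571% of all probes. Over all probes 234 passed with all lines in the test. Leaving out ZR-75-30 gave 0, HCC1954 gave 2, T-47D 62, MDA-MB-361 117 and MDA-MB-231 267. At an unadjusted p under 0.05 there were 5 of 11, beside 16.8% of all probes. These were SMAD9, SMAD4, one SMAD3 probe and the 2 bright SMAD2 probes. The difference was above 0 in 5 of 5 lines for 2 of 11 SMAD probes, beside 6.26% of all probes. It was below 0 in 5 of 5 for 6 of 11. Beside these stand 13.8% of all probes that were above 0 in no line. That share also counts differences of exactly 0, so it is not the share below 0 in 5 of 5. The 6 were SMAD4, SMAD5, the second SMAD3 probe and the SMAD2 probes A_23_P15937, A_24_P202527 and A_32_P12580, so probes of 1 gene were counted apart. The SMAD2 probe A_32_P109002 was above 0 in 2 of 5 lines and the leading SMAD3 probe in 1 of 5. The median difference over the 11 probes was -0.17, and that over all probes was 0. An F test over the 6 times called 0 of 11 SMAD probes (limma), beside 0.00732% of all probes, and at an unadjusted p under 0.05 there were 4 of 11, beside 4520 of all 40961 probes.

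**Figure D2:**
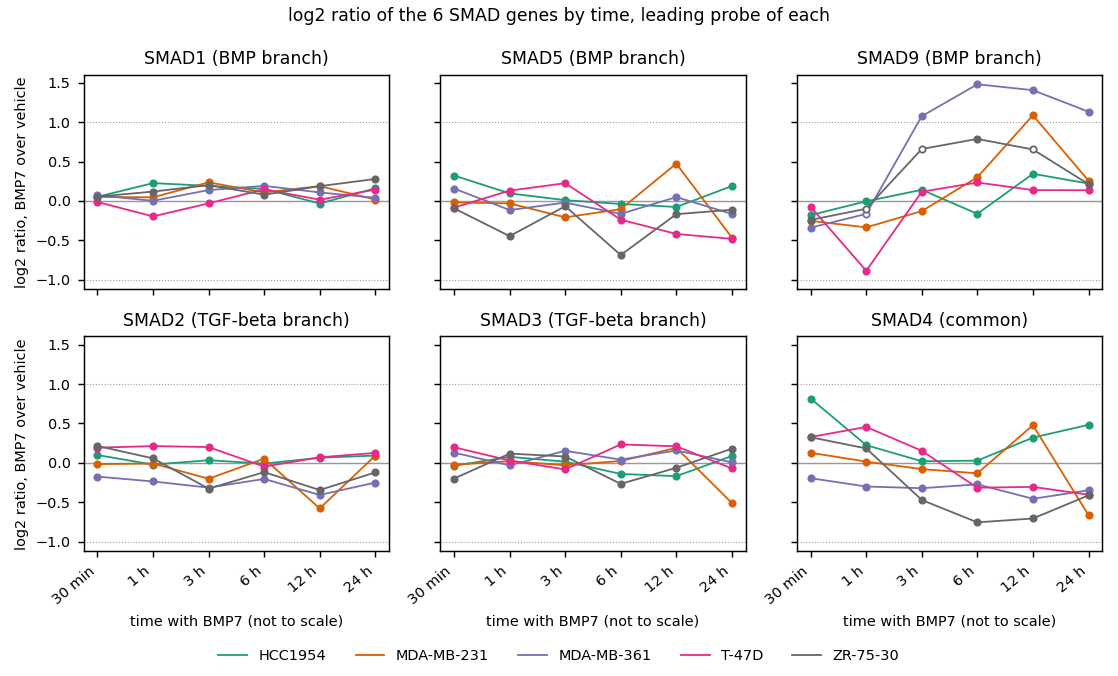
Log2 ratio of BMP7 over vehicle for each SMAD gene by its leading probe, against time with BMP7, with 1 line a cell line and 1 point an array. Open points mark arrays on which a channel was not above background, and dotted lines mark 2-fold. SMAD9 in MDA-MB-361 lies above 2-fold from 3 h on, and the SMAD4 ratios of ZR-75-30 go from 0.33 at 30 min to -0.41 at 24 h.

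SMAD1, also of the BMP branch, had log2 ratios between -0.20 and 0.28 by its leading probe over all 30 arrays. Its mean over the 6 times was above 0 in 5 of 5 lines, from 0.01 in T-47D to 0.15 in ZR-75-30, and the mean over lines was 0.097 (95% interval 0.031 to 0.163, limma adjusted p = 0.195). A dye effect cannot be told apart from this mean. SMAD1 by its second probe ranged from -1.01 (T-47D, 24 h) to 1.44 (ZR-75-30, 6 h), and the ratios of both SMAD1 probes correlated at r = 0.05 over 30 arrays. SMAD5 had ratios from -0.69 (ZR-75-30, 6 h) to 0.47 (MDA-MB-231, 12 h). Its late minus early difference was -0.18 (SE 0.12, adjusted p = 0.492), below 0 in 5 of 5 lines.

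Both TGF-beta branch SMADs stayed under a 2-fold change on every array by their leading probes. SMAD2 in MDA-MB-361 was below 0 at all 6 times, with ratios from -0.41 to -0.17. In ZR-75-30 the SMAD2 ratios in order of time were 0.21, 0.057, -0.33, -0.12, -0.35 and -0.12. In T-47D it lay between -0.05 and 0.21 and in HCC1954 between -0.02 and 0.10. The lowest SMAD2 value was -0.58, in MDA-MB-231 at 12 h. The late minus early difference of SMAD2 was -0.17 by the leading probe (SE 0.078, adjusted p = 0.267) and -0.23 by the second brightest (SE 0.072, adjusted p = 0.110). SMAD3 by its leading probe ranged from -0.27 to 0.23, apart from -0.51 in MDA-MB-231 at 24 h. Its late minus early difference was -0.01 (adjusted p = 0.998), and that of the second SMAD3 probe was -0.19 (SE 0.078, adjusted p = 0.204).

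**Figure D3:**
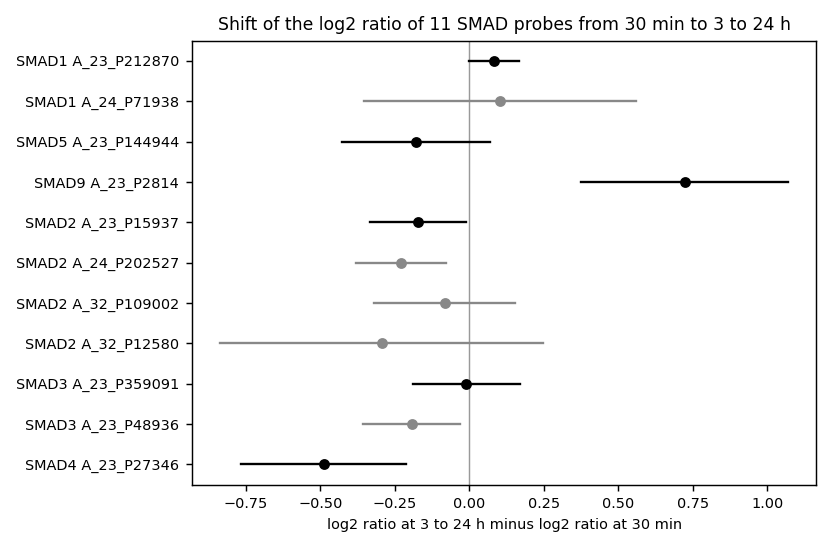
Mean log2 ratio at 3 to 24 h minus the log2 ratio at 30 min for the 11 SMAD probes, with 95% intervals from the fit with cell line as a block (black, leading probe of a gene; grey, other probes). SMAD9 lies at 0.72 and SMAD4 at -0.49, and the other leading probes lie between -0.18 and 0.08.

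Averaged over the 5 lines, no SMAD probe had a mean log ratio other than 0 at an adjusted p under 0.05 (limma on the 5 line means), beside 0.00976% of all probes. At an unadjusted p under 0.05 there was 1 of 11, the leading SMAD1 probe, beside 15.4% of all probes. The 5 lines were then compared with each other. The log ratio differed between lines for 15.9% of 40961 probes (limma, F test with time as a factor and slide as a random block). Among probes above background in both channels on every array the share was 25.9%. Of the 11 SMAD probes, 4 differed. These were SMAD9 (adjusted p = 0.0311), SMAD4 (0.0372) and the 2 bright SMAD2 probes (0.0113 and 0.00357). MDA-MB-361 was in called pairs of lines for all 4 probes, which had 2, 2, 2 and 3 called pairs of 10. Over all probes 4.59% of pairs were called, which is no measure for these 4, since the F test on the same ratios picked them. Of the other SMAD probes, the second SMAD1 probe had 1 called pair (T-47D against ZR-75-30, limma adjusted p = 0.0177) and the rest had 0. SMAD9 had a mean ratio of 0.76 in MDA-MB-361 (95% interval 0.48 to 1.05). This was 0.82 above T-47D (adjusted p = 0.00871) and 0.70 above HCC1954 (0.0198). SMAD4 had a mean ratio of 0.31 in HCC1954 (0.08 to 0.55), 0.63 above MDA-MB-361 (adjusted p = 0.0142) and 0.62 above ZR-75-30 (0.0453). SMAD2 by its leading probe had a mean of -0.26 in MDA-MB-361 (-0.38 to -0.15), which was 0.39 below T-47D (adjusted p = 0.00294) and 0.31 below HCC1954 (0.0128). The second brightest SMAD2 probe was 0.48 lower in MDA-MB-361 than in T-47D (adjusted p = 0.000882) and 0.40 higher in T-47D than in ZR-75-30 (0.00446). In MDA-MB-361 SMAD9 was thus high where SMAD2 and SMAD4 were low. The mean ratios of ZR-75-30 had the same signs, with 0.33 for SMAD9 (0.04 to 0.61) and -0.31 for SMAD4. For the leading and the second brightest SMAD2 probe they were -0.11 (-0.22 to 0.007) and -0.21. The pair of MDA-MB-361 and ZR-75-30 was not called for any of these probes. Without the 12 h arrays or without the 24 h arrays none of the 4 passed, when 502 and 174 of all probes did, against 6531 with all arrays. With normexp background correction and median scaling none passed either. Over 15 alternatives SMAD4 passed in 5, SMAD9 in 9, and the 2 bright SMAD2 probes in 11 and 12.

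A change of at least 2-fold on a single array, the limit used in the study, was rare for these genes. Over the 330 values of 11 probes on 30 arrays, 7 were at least 2-fold up (2.12%, beside 0.908% of all array values) and 3 at least 2-fold down (0.909%, beside 0.957%). SMAD9 had 5 of the 7, in MDA-MB-361 at 3, 6, 12 and 24 h and in MDA-MB-231 at 12 h, each with both channels above background. The second SMAD1 probe was 2.71-fold up in ZR-75-30 at 6 h and down in T-47D at 24 h. The dimmest SMAD2 probe, A_32_P12580, was down in ZR-75-30 at 6 h (signals 142 and 37.7) and in MDA-MB-231 at 24 h (374 and 170), and up in T-47D at 24 h, where both channels were below background. No event was seen by the leading probes of SMAD1, SMAD2, SMAD3, SMAD4 and SMAD5. After normexp background correction with loess there was 1 event in place of 10, and with normexp and median scaling there were 17. There is no replicate check on a single array.

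The messages of proteins that feed and limit the SMADs, and of their ID targets, were followed as a list of 46 genes with 87 probes. All were found on the array. In the test from 30 min to 3 to 24 h, 4 of the 87 probes were higher and 0 lower at an adjusted p under 0.05, beside 0.190% higher and 0.380% lower among all probes. By class, 3 of 5 probes of the ID targets were higher, and 1 of 2 probes of inhibitory SMADs. ID1, a helix-loop-helix inhibitor of differentiation and a direct BMP target, rose by 1.05 on the log2 scale (SE 0.24, limma adjusted p = 0.0490). Its difference was 1.70 and 1.68 in the lines MDA-MB-231 and MDA-MB-361, 1.02 in HCC1954, 0.52 in T-47D and 0.33 in ZR-75-30. ID2 rose by 1.14 (SE 0.17, adjusted p = 0.0130), ID3 by 0.92 (SE 0.16, adjusted p = 0.0254) and SMAD6, an inhibitory SMAD that limits BMP-branch signaling, by 0.57 (SE 0.12, adjusted p = 0.0426), each in 5 of 5 lines. SMAD7, the other inhibitory SMAD, had a difference of 0.20 (adjusted p = 0.402). For SMAD6 the difference was 0.91 in ZR-75-30, 0.63 in MDA-MB-361, 0.58 in HCC1954, 0.58 in T-47D and 0.18 in MDA-MB-231. Receptors (18 probes), anchors and nuclear transport proteins (22), phosphatases (9), ubiquitin ligases and deubiquitinases (15) and co-activators and co-repressors (16) had 0 calls in either direction, with medians of -0.18, 0.03, -0.08, 0.04 and 0.16. ID2 by its second probe was at 0.70 with an adjusted p of 0.0548. The calls on ID1, ID2, ID3 and SMAD6 were all lost without ZR-75-30 (limma adjusted p from 0.206 to 0.271), without HCC1954 (0.158 to 0.220), with scan batch as a term (0.0524 to 0.157), in the first scan batch alone (0.262 to 0.265), with 1 difference per line (0.219 to 0.236) and after normexp with median scaling (0.998), where the 4 differences were above 0 throughout. Without MDA-MB-361 only ID2 passed of these 4, and without T-47D only ID2 and ID3. ID1 also lost its call with outlier-marked spots kept (limma adjusted p = 0.0501), with slide as a random block (0.0512) and with the log2 ratios deposited by the authors (0.0613). SMAD6 lost its call with those deposited ratios (0.0575) and after normexp with loess (0.0740).

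**Figure D4:**
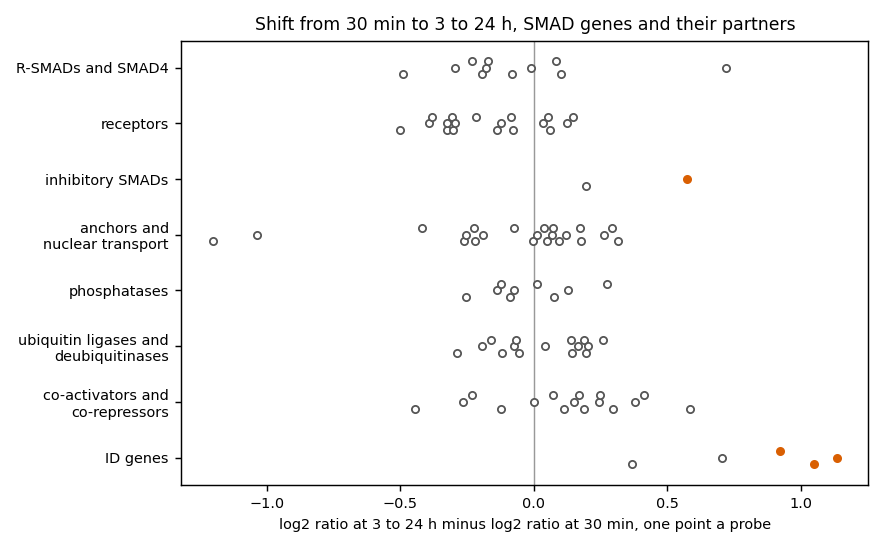
Mean log2 ratio at 3 to 24 h minus the log2 ratio at 30 min for the SMAD probes (top) and for the 87 probes of the SMAD partner genes by class, 1 point a probe, with filled points at an adjusted p under 0.05. Filled are ID1, ID2, ID3 and SMAD6; SMAD9 is the point at 0.72 in the top row.

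Of the partner probes, 16 of 87 differed between lines in the log ratio, beside the 15.9% above, and 73 of 87 in the vehicle level, beside 68.0%. Among probes above background on every array these shares were 25.9% and 87.5%. In the log ratio the smallest adjusted p were those of CTDSPL, a phosphatase (range of line means 0.74, adjusted p = 0.000332), SMAD6 (0.85, 0.00135), the import factor IPO7 (1.03, 0.00501), the endosomal anchor ZFYVE16 (0.54, 0.00683) and the nuclear membrane protein LEMD3, which binds receptor-activated SMADs (0.44, 0.00688). By the same F test the other CTDSPL probe did not pass (adjusted p = 0.265), nor did the other ZFYVE16 probes (0.0738, 0.143 and 0.221). The other IPO7 probe passed (0.0367). In the vehicle level the smallest adjusted p were those of TGFBR2, ID4, TRIM33, ID2 and RUNX2. TGFBR2, the type II receptor for TGF-beta, had scaled log2 levels of -5.25 in T-47D, -2.24 in MDA-MB-361, -0.26 in ZR-75-30, 2.15 in HCC1954 and 2.79 in MDA-MB-231 (adjusted p = 7.41e-19). The lowest 2 lines and the highest line were those of the SMAD3 leading probe. This TGFBR2 probe was above background in the vehicle channel on 24 of 30 arrays, so its lowest levels are near the floor. The other TGFBR2 probe, above background on 15, was lowest in T-47D (-6.60) and MDA-MB-361 (-6.45) and highest in MDA-MB-231 (-2.41). The scaled levels of ID1 in vehicle cells were 2.64 in MDA-MB-231, 4.60 in HCC1954, 5.33 in T-47D, 5.58 in ZR-75-30 and 5.60 in MDA-MB-361, lowest in the line with the lowest SMAD1 level. TRIM33, a ubiquitin ligase that binds SMADs, was highest in ZR-75-30 (3.49), where the other lines lay between -0.23 and 0.69.

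Genes whose values went most closely with each SMAD over the 30 arrays are named as a description, since arrays of a line share their cells and the scaling of the array. By vehicle level, the nearest were CDC42BPG (r = 0.987), CDH1 (0.985) and RAB3D (0.979) for SMAD1. For SMAD3 they were TMEM51 (0.955), MAP2K3 (0.953) and NRP1 (0.946), and for SMAD5 AHR (0.965), PDCD5 (0.955) and NUDCD1 (0.949). SMAD2 was nearest to HBP1 (0.901), AZIN1 (0.891) and YWHAZ (0.890), SMAD9 to HYAL2 (0.909), LAMTOR1 (0.903) and ALKBH3 (0.898), and SMAD4 to LTN1 (0.829), TRIM23 (0.826) and FAM200C (0.826). By log2 ratio, SMAD9 was nearest to DUSP2 (r = 0.790), COQ4 (0.789) and POMZP3 (0.770). SMAD4 was nearest to ABCB10 (0.952), ZNHIT6 (0.945) and YTHDF3 (0.937), and SMAD2 to SPAG9 (0.944), SENP1 (0.928) and MCMBP (0.924). The ratios of SMAD5 were nearest to RPL15 (0.868), USP3 (0.868) and PDPK1 (0.866), and those of SMAD3 to TEX2 (0.790), APP (0.788) and ACO1 (0.787).

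Among the SMADs themselves, the ratios of SMAD4 correlated with those of the second SMAD3 probe (r = 0.84), of SMAD5 (0.66) and of the second brightest SMAD2 probe (0.62), and those of SMAD9 ran against the leading SMAD2 probe (-0.68). The ratios of the 2 bright SMAD2 probes correlated at 0.69 and those of both SMAD3 probes at 0.31.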

How the data were processed

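Feature Extraction 9.5.1.1 (per the file headers) made the log10 ratios and the intensities that the authors deposited, with background subtraction and linear and lowess dye normalization. A table of log2 ratios was deposited as well. Of the 30 arrays, control and outlier-marked spots were left out, log10 ratios were changed to log2, replicate spots were averaged within a probe, and arrays were set to a median of 0, which was their median already. The matrix has the same scale and direction, with a slope of 0.999 to 1.01 and a correlation of 0.825 to 0.998 against these values and a median of 0 in each column. Vehicle levels are log2 intensity minus the 75th percentile of the array. Their number and the signal over background limit the precision.

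Tests used limma 3.58.1 in R 4.3.3 on all probes with Benjamini-Hochberg adjustment. In simulated data of 41000 probes, 196 to 200 of 200 changes of 4-fold were recovered with 8 to 21 false calls. The noise was drawn independently for each array with the SD of each probe's log2 ratios, for the tests of vehicle levels too. It held no correlation within a slide or a line. The counts therefore do not check the tests on the vehicle levels themselves, nor false calls under such correlation. Only changes of 4-fold were simulated. The late minus early log2 differences of SMAD9 (0.72) and SMAD4 (-0.49) are smaller than that. Recovery of changes of their size was not tested, so these counts give no power for them. Slide entered as a random block by duplicateCorrelation on 4000 probes (correlation -0.01 for ratios, 0.26 for levels).

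The members, the partner list and the tests were chosen with earlier results of these data known. Named were all SMAD probes, partner probes with the smallest adjusted p past the threshold (up to 5 a fit, 1 a gene), ID1, and for each leading probe the 3 genes of highest r among probes above background on every array and with a RefSeq symbol. The genes nearest to SMAD1 by log2 ratio are not reported here. ID2 by its second probe, SMAD7 and the marker genes named were added after their values were seen. Alternatives were normexp (offset 50) with loess or median scaling, quantile or median scaling of levels, the matrix values, spots above background only, outlier-marked spots kept, scan batch or slide in or out of the fit, 1 h counted with 30 min, and each line or time left out. Leaving out ZR-75-30 at 6 h and testing 1 difference per line were added after seeing the data.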

Additional observations from a re-analysis of the deposited data

Results flagged for a closer look

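In 3 of 60 groups of 6 arrays of a line, 1 array lay far from the others, where chance gives about 1 in 20. SMAD1 had a scaled vehicle level of 1.47 (log2) in HCC1954 at 1 h, with the other arrays of that line between 0.74 and 0.87. SMAD3 had a log2 ratio of -0.51 in MDA-MB-231 at 24 h, with the others between -0.03 and 0.19. SMAD9 had a log2 ratio of -0.89 in T-47D at 1 h, with the others between -0.08 and 0.23.

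The log2 ratio differed between cell lines by the limma F test for SMAD9 (adjusted p = 0.0311), SMAD4 (0.0372), the leading SMAD2 probe (0.0113) and the second brightest SMAD2 probe (0.00357). None of these passed without the 12 h arrays or without the 24 h arrays. Over 15 alternatives SMAD4 passed in 5, SMAD9 in 9, and the SMAD2 probes in 11 and 12. Leaving out any 1 time point lost the call on SMAD4 (lowest adjusted p = 0.0505).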

How the results depend on the processing

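The vehicle levels of SMAD1, SMAD3 and SMAD5 differed between lines under all 15 alternatives, and SMAD4 passed under none of them. Of the 11 SMAD probes, 5 passed with normexp background correction in place of 10 (14197 of all probes in place of 27880), and 8 to 10 when a time point was left out. Across time points 3 of all probes passed with normexp and 4 in the first scan batch, in place of 10.

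In the test from 30 min to 3 to 24 h, 2 SMAD probes passed with spots above background only, 3 with 1 h counted with 30 min, 1 without ZR-75-30 at 6 h, and 0 to 1 when a line was left out, in place of 0. Calls over all probes, 234 with 78 higher and 156 lower, were 64 after loess with normexp (15 and 49), 1 after median scaling with normexp, 39 from the matrix (21 and 18), 1197 above background (634 and 563), 1002 with 1 h added (587 and 415), 11 with scan batch (5 and 6), 8 in the first batch (2 and 6), 797 without ZR-75-30 at 6 h (475 and 322), 0 with 1 difference per line, and 0 to 267 when a line was left out. The cause was not tested.

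For the mean over lines, calls over all probes were 127 (normexp, loess), 3146 (normexp, median scaling), 279 from the matrix, 211 above background, 7 with outlier-marked spots, 46 without ZR-75-30 at 6 h and 0 when any line was left out, in place of 4, and no SMAD probe passed. Across lines, 0 SMAD probes (1 of all) passed with normexp and median scaling, 2 (6314 of all) from the matrix, and 0 to 3 (174 to 5415 of all) when a time point was left out, in place of 4 (6531). Events of 2-fold numbered 1 with normexp and loess, 17 with median scaling and 1 at 3-fold.

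Reversed signs were all of values that did not pass. In the mean over lines, normexp with median scaling gave 0.13, 0.093 and 0.033 for SMAD2 (A_23_P15937, A_24_P202527, A_32_P109002), 0.0072 for SMAD4 and 0.028 for SMAD5. The matrix gave -0.017 for SMAD3 (A_23_P359091). Leaving out a line gave -0.0080 to 0.027 for that probe, -0.043 to 0.033 for A_32_P109002 and -0.060 to 0.15 for SMAD1 (A_24_P71938). From 30 min to later times, normexp with median scaling gave -0.18 and -0.15 for SMAD1. SMAD3 (A_23_P359091) gave 0.011 in the matrix, 0.0020 without ZR-75-30 at 6 h and -0.060 to 0.017 when a line was left out. A_32_P109002 gave 0.037 with scan batch and 0.029 in the first batch, and A_24_P71938 gave -0.0051 there. Dim signals, chiefly of SMAD9, limit the ratios.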
